A study of Mus musculus with 36 samples.

Results

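Ion channel genes of the voltage-gated and potassium channel families were followed in 4 tissues of mice given bacterial lipopolysaccharide (LPS), alone or with genipin, a compound obtained from gardenia fruit. Members were all array probes whose gene symbol begins with Kcn, Scn plus a digit, Cacna, Cacnb, Cacng or Hcn plus a digit, and each gene was represented by its probe with the highest mean. The rule found 105 probes for 82 genes, of 12394 genes on the array with a symbol. The chosen probe had values for 70 of these 82 genes in brain and for 39 in heart. Kidney arrays gave values for 26 and liver arrays for 19, and 12 genes had them in every tissue. A further 5 genes in heart, 3 in kidney and 6 in liver were measured only by a probe that the rule did not choose, and they are outside the counts below. Among them, Kcnma1 and Scn8a had such a probe with values in all 4 tissues.

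The mice were transgenic animals of the FVB strain, female and 6 to 8 weeks old, imaged for luciferase activity; the labels name neither the transgene nor its promoter. The mock group received no treatment, the LPS group 4 mg/kg LPS into the peritoneum, and the LPS+genipin group the same LPS followed 10 min later by genipin, with tissues taken 4 h later. No group received genipin alone. The experiment used genipin at 1, 10 and 100 mg/kg, and which of these doses the arrayed tissues had is not given in the labels. Brain, heart, kidney and liver were each measured on 9 arrays, 3 per group, from total RNA labelled with Cy5. The labels do not tie the 3 arrays of a group to different animals, so p-values measure the spread between these arrays, which may be technical.

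Potassium channels let potassium leave the cell and so set the resting potential and end each action potential, whereas voltage-gated sodium and calcium channels start the action potential and admit the calcium that triggers contraction or transmitter release. Pore-forming alpha subunits carry the current, and smaller auxiliary subunits set how many channels reach the membrane and how fast they open and close. Cardiac muscle is known to depend on this balance for its rhythm, neurons for their firing pattern, and the kidney tubule for potassium secretion.

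All levels below are log2 of the authors' normalised intensity, with values under 8.04 (the 5th percentile of all values) set to that floor. Differences are log2 differences ± SE from limma's moderated test on the 9 arrays of a tissue, with Benjamini-Hochberg adjustment over all genes of the tissue, and a gene is said to have risen or fallen only at an adjusted p under 0.05. A group whose arrays all lay at the floor has no spread of its own, so p-values of such genes do not measure the full spread between arrays. Levels of different probes or of different tissues are not comparable. Arrays of a group correlated at 0.985 to 0.998 over all genes, and their median intensity within a tissue was nearly identical (2096 to 2098 in brain and 1252 to 1253 in liver, for example). In these whole tissues, fewer cells of a type and less RNA per cell cannot be told apart.

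The tissue labels were checked against cell type markers, and some arrays carried transcripts of other tissue. Heart muscle markers were near saturation in every heart array, with a median level of 16.0 in each group. The 3 LPS hearts also carried atrial transcripts (median of 3 markers 15.9 to 16.0, against 10.5 to 10.8 in mock and 10.0 to 10.1 in LPS+genipin hearts) and fat cell transcripts (median of 4 markers 14.1 to 14.5, against 10.1 to 10.2 and 10.0 to 10.1). The 3 mock brains carried skeletal muscle transcripts, with a median of 7 markers of 13.7 to 13.8 against 8.69 to 8.88 in LPS and 8.81 to 9.14 in LPS+genipin brains. Choroid plexus markers, led by Ttr, summed to 12.2 to 12.5 in LPS brains against 16.0 in mock brains and 16.1 in LPS+genipin brains. The median of the 5 markers did not fall with LPS. It was 9.04 to 9.18 in mock, 9.25 to 9.43 in LPS and 10.5 to 10.8 in LPS+genipin brains. Neutrophil markers were higher in treated hearts, with a median of 3 markers of 9.69 to 9.91 in mock, 13.7 to 13.9 in LPS and 12.5 to 13.1 in LPS+genipin hearts. The summed endothelial level was 15.8 to 15.9 in mock, 15.3 in LPS and 15.5 in LPS+genipin hearts. In LPS brains 7 of 9 endothelial markers fell and 1 rose, where 17.5% of all brain genes fell and 16.4% rose. Oligodendrocyte medians were 13.4 to 13.5 in mock, 13.8 to 13.9 in LPS and 14.2 to 14.4 in LPS+genipin brains. The part of all these differences in the channel results was not tested.

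In heart, most channel genes that changed after LPS fell. They included the transient outward current subunit Kcnip2, the ATP-sensitive potassium channel pores Kcnj8 and Kcnj11, the inward rectifier Kcnj12, the stretch-gated background channel Kcnk2 and the calcium channel beta subunit Cacnb2, with falls between 0.93 and 1.89 on the log2 scale. Of 39 channel genes, 16 fell (41.0%) and 4 rose (10.3%), where 29.1% of all 9518 heart genes fell and 18.2% rose. The median difference was -0.23 for the channel genes and -0.06 for all genes. Leaving out 1 array at a time gave 18 to 21 called genes.

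**Figure D1:**
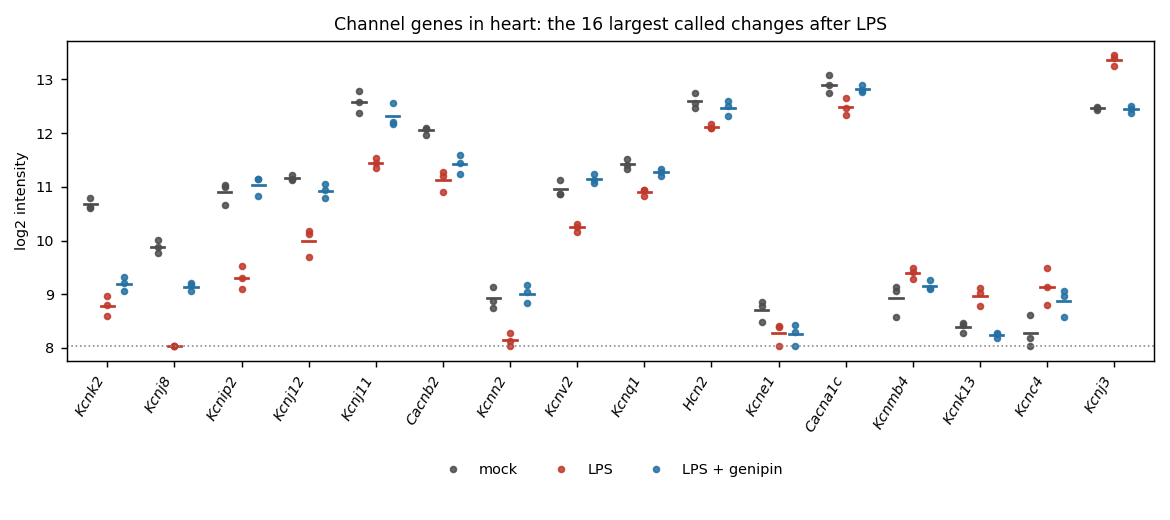
Levels in the 9 heart arrays of the 16 channel genes with the largest called LPS changes, as log2 intensity: each point is an array, each short bar the mean of a group of 3, and the dotted line the floor at 8.04. Kcnk2 and Kcnj8 lay lowest in the LPS arrays relative to mock, Kcnj3 lay higher in the LPS arrays than in both other groups, and Kcnip2, Kcnj11 and Kcnj12 in the LPS+genipin arrays lay near mock.

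To show the sequence upstream of genes that moved in opposite directions, the 150 bases before the start are given for 3 genes that fell and 1 that rose in LPS hearts, from RefSeq (GRCm38.p6, 5′ to 3′ on the gene's strand, GGGCGG matches in capitals).
Kcnip2, chr19:45816064-45816213, minus strand: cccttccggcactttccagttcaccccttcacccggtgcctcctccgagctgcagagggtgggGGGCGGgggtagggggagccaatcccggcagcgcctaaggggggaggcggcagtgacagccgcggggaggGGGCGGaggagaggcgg
Kcnj8, chr6:142571615-142571764, minus strand: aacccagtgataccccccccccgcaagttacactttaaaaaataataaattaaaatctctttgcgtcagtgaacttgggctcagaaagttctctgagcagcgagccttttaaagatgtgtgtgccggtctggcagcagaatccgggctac
Kcnj12, chr11:61065654-61065803, plus strand: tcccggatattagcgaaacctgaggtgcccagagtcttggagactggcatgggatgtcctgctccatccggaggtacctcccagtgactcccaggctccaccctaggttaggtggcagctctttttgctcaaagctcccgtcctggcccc
Kcnj3, chr2:55435820-55435969, plus strand: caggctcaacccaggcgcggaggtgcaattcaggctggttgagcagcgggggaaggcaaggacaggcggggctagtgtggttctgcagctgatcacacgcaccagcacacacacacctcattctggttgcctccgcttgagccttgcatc

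The table matched 60 of the 82 genes, 16 of them with several starts. In these windows 6 motifs were searched on both strands. They were the AP-1 letters TGANTCA, the cyclic AMP response letters TGACGTCA, the E-box CACGTG, the GC box GGGCGG, the GATA letters AGATAA and an NF-kappaB motif. Kcnip2 held 2 GC boxes, 87 to 82 and 17 to 12 bases before its start, and the other 3 windows held none of the 6 motifs. A GC box was present in 28.6% of all 32851 promoters of the table, in 34.9% of the 86 promoters of channel genes and in 26.7% of the 15 promoters of 9 channel genes that fell in LPS hearts. The share was 45.0% of the 20 promoters of 15 heart channel genes that were not called with LPS. The NF-kappaB motif was in 0.228% of all promoters and in 0 of the 86. A match is a description of these letters and not a site.

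Subunits of the transient outward and delayed rectifier currents, which repolarise cardiac muscle, are taken next. Kcnip2 (KChIP2) is the calcium-binding partner that Kv4 channels need for a full transient outward current. Its levels were 10.67, 11.04 and 11.00 in mock hearts, 9.30, 9.10 and 9.53 in LPS hearts and 11.14, 10.83 and 11.15 in LPS+genipin hearts. All 3 LPS arrays lay below every other array, and mock and LPS+genipin arrays overlapped. The LPS difference was -1.59 ± 0.15 (adjusted p = 6.47e-05) and the genipin difference against LPS 1.73 ± 0.15 (adjusted p = 5.86e-05).

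Kcnd2, a Kv4 pore that carries this current, was at 12.20, 12.11 and 12.20 in mock and 11.89, 12.05 and 11.62 in LPS hearts. Its fall of -0.32 ± 0.11 (adjusted p = 0.0395) was not called when any 1 of 5 arrays was left out, every array compared except LPS replicate 2, with adjusted p between 0.0635 and 0.0979. The fall was -0.20 without LPS replicate 3. Kcnv2, a silent Kv subunit that works only in company with other Kv pores, was at 10.87, 11.13 and 10.86 in mock, 10.31, 10.15 and 10.26 in LPS and 11.24, 11.08 and 11.13 in LPS+genipin hearts. It fell by 0.71 ± 0.09 with LPS (adjusted p = 0.000348) and was higher by 0.90 ± 0.09 with genipin than with LPS alone (adjusted p = 0.000123).

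Kcnq1, the pore of the slow delayed rectifier, fell from 11.51, 11.40 and 11.33 in mock to 10.94, 10.93 and 10.83 in LPS hearts and was at 11.28, 11.33 and 11.20 with genipin. The differences were -0.51 ± 0.07 (adjusted p = 0.000459) and 0.37 ± 0.07 (adjusted p = 0.00328). Its partner Kcne1 lay close to the floor at 8.79, 8.49 and 8.85 in mock and 8.40, 8.40 and 8.04 in LPS hearts. Its difference of -0.43 ± 0.15 (adjusted p = 0.0419) was called only without mock replicate 2 or with all arrays, and adjusted p was 0.0512 to 0.125 with any other array of the 6 left out. Kcnh2, the rapid delayed rectifier pore, did not pass the test with LPS (-0.08 ± 0.08). With genipin it was 0.25 ± 0.08 above LPS (adjusted p = 0.0357), a call that was lost without LPS+genipin replicate 1 or 3 or LPS replicate 1 or 2 (adjusted p between 0.0762 and 0.113). Kcna5, which carries the ultrarapid current, differed from mock by 0.28 ± 0.11 in LPS hearts (adjusted p = 0.063), and passed the threshold without LPS replicate 1 (0.36, adjusted p = 0.0315) or mock replicate 3 (0.35, adjusted p = 0.0445).

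Inward rectifiers hold the resting potential of heart muscle near the potassium equilibrium, and 2 of them, Kcnj8 (Kir6.1) and Kcnj11 (Kir6.2), form channels that open when ATP falls. Kcnj8 was at 10.01, 9.89 and 9.77 in mock hearts, at the floor in all 3 LPS hearts, and at 9.06, 9.20 and 9.17 in LPS+genipin hearts. It was at least 3.61-fold lower with LPS than in mock (adjusted p = 3.09e-07) and at least 2.15-fold higher with genipin than with LPS alone (adjusted p = 1.25e-05). The LPS+genipin arrays remained below mock by 0.75 ± 0.07 (adjusted p = 0.000313).

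Kcnj11 was at 12.38, 12.57 and 12.79 in mock, 11.53, 11.35 and 11.44 in LPS and 12.20, 12.17 and 12.55 in LPS+genipin hearts. It fell by 1.14 ± 0.13 (adjusted p = 0.000226) and was 0.87 ± 0.13 higher with genipin than with LPS alone (adjusted p = 0.00127). The regulatory subunit of these channels in muscle, Abcc9 (SUR2), is no member of the families; it fell by 0.74 ± 0.08 and was 0.57 ± 0.08 higher with genipin than with LPS alone (adjusted p = 0.000107 and 0.000607). Kcnj12 (Kir2.2), a classical inward rectifier, was at 11.14, 11.22 and 11.12 in mock, 10.12, 10.18 and 9.70 in LPS and 10.80, 11.04 and 10.93 in LPS+genipin hearts. Its differences were -1.16 ± 0.13 and 0.93 ± 0.13 (adjusted p = 0.000166 and 0.000737). For both genes every LPS array lay below all 6 other arrays.

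Kcnj3 (GIRK1) moved the other way. It encodes a pore of the muscarinic potassium channel that slows the heart under vagal tone and is known as an atrial gene. Its levels were 12.49, 12.48 and 12.42 in mock, 13.45, 13.39 and 13.24 in LPS and 12.38, 12.50 and 12.45 in LPS+genipin hearts. The 3 LPS arrays lay above all others, by 0.90 ± 0.07 against mock (adjusted p = 1.87e-05) and with a genipin difference of -0.92 ± 0.07 (adjusted p = 2.59e-05). The atrial markers Myl7 and Dkk3 were higher in the same 3 arrays by at least 50.6-fold and by 3.73 ± 0.10 on the log2 scale, and their part in the Kcnj3 result was not tested. A second Kcnj3 probe did not show the change: its differences were -0.16 ± 0.08 with LPS and 0.23 ± 0.08 with genipin against LPS (adjusted p = 0.148 and 0.0620, adjusted over all probes of the tissue).

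Among background (K2P) potassium channels, which leak potassium at all voltages, Kcnk2 (TREK-1) was at 10.79, 10.61 and 10.62 in mock, 8.79, 8.97 and 8.60 in LPS and 9.06, 9.31 and 9.21 in LPS+genipin hearts. The 3 groups did not overlap. Kcnk2 fell by 1.89 ± 0.11 (adjusted p = 3.95e-06), and with genipin it was 0.40 ± 0.11 above LPS (adjusted p = 0.0193) and still below mock (-1.48 ± 0.11, adjusted p = 7.65e-05). Kcnk13 (THIK-1) was low in every heart and rose from 8.46, 8.43 and 8.28 to 9.12, 9.02 and 8.78 with LPS, a difference of 0.58 ± 0.09 (adjusted p = 0.0013); with genipin it was at 8.26, 8.19 and 8.27. Kcnk6 fell by 0.31 ± 0.07 (adjusted p = 0.00833). Kcnk3 (TASK-1) did not pass the test with LPS (-0.23 ± 0.10, adjusted p = 0.0807) and was 0.42 ± 0.10 higher with genipin than with LPS alone (adjusted p = 0.00959). Its second probe gave -1.05 ± 0.18 with LPS (adjusted p = 0.00186).

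Calcium channel genes of the heart fell where they passed the test. Cacnb2, the beta subunit that brings the L-type pore to the membrane, was at 12.10, 11.97 and 12.08 in mock, 11.27, 11.20 and 10.90 in LPS and 11.24, 11.44 and 11.58 in LPS+genipin hearts. It fell by 0.93 ± 0.12 (adjusted p = 0.000359) and remained below mock with genipin (-0.63 ± 0.12, adjusted p = 0.00812). A second Cacnb2 probe gave 0.03 ± 0.05 with LPS (adjusted p = 0.665). LPS and LPS+genipin arrays overlapped (0.30 ± 0.12, adjusted p = 0.0737). Without LPS+genipin replicate 1 that difference was 0.39 (adjusted p = 0.0404). Cacna1c, the L-type pore itself, fell by 0.41 ± 0.11 (adjusted p = 0.0128), from 13.07, 12.74 and 12.89 to 12.48, 12.65 and 12.34, and a second probe gave 0.41 ± 0.20 in the other direction (adjusted p = 0.132). Its genipin difference of 0.33 ± 0.11 (adjusted p = 0.0353) was lost without any 1 of 5 arrays, all but LPS replicate 2 (adjusted p between 0.0674 and 0.103). Cacna1g, a T-type pore, fell by 0.39 ± 0.10 (adjusted p = 0.0104), while Cacna1h, another T-type pore, differed by 0.38 ± 0.14 (adjusted p = 0.061; 0.51 with adjusted p = 0.0197 without mock replicate 3).

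The pacemaker channel Hcn2 fell by 0.48 ± 0.10 (adjusted p = 0.00424), from 12.76, 12.56 and 12.46 in mock to 12.09, 12.16 and 12.10 in LPS hearts. With genipin it was 0.36 ± 0.10 above LPS (adjusted p = 0.0191), a call that was lost without LPS+genipin replicate 1 or 2 or LPS replicate 1 (adjusted p between 0.0563 and 0.0688). Scn7a, a sodium sensor related to the sodium channels, fell by 0.34 ± 0.06 (adjusted p = 0.00153). The muscle sodium channel Scn4a did not pass the test (0.25 ± 0.21). The small-conductance calcium-activated channel Kcnn2 fell from 9.14, 8.75 and 8.88 to 8.14, 8.27 and 8.04 and was back at 8.84, 9.16 and 9.04 with genipin, with differences of -0.77 ± 0.12 and 0.87 ± 0.12 (adjusted p = 0.00116 and 0.00083). Kcnc4, a fast Kv3 channel, rose by 0.86 ± 0.22 (adjusted p = 0.0125), from 8.18, 8.62 and 8.04 in mock hearts, at or near the floor. Kcnmb4, a beta subunit of the large calcium-activated channel, rose by 0.47 ± 0.14 (adjusted p = 0.0263), which was 0.30 without mock replicate 3 and was not called without LPS replicate 2 or 3 (adjusted p = 0.0641 and 0.0751).

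With genipin on top of LPS, 15 of the 39 heart channel genes were higher than with LPS alone and 3 lower, where 22.1% of all heart genes were higher and 19.9% lower. The median difference was 0.15 for the channel genes and 0.03 for all genes. The largest called rises by the chosen probes were those of Kcnip2, Kcnj8, Kcnj12, Kcnv2 and Kcnj11 already given, and Kcnj10 rose too, by 0.83 ± 0.21 (adjusted p = 0.0133). The 3 lower genes were Kcnj3, Kcnk13 and Cacna2d3, an auxiliary calcium channel subunit whose difference of -0.18 ± 0.05 (adjusted p = 0.0313) was lost without any 1 of 5 arrays, all but LPS replicate 2 (adjusted p between 0.0553 and 0.11). Kcnma1, the pore of the large-conductance calcium-activated channel, was measured in heart only by a probe outside the rule, which was named after its values were seen. It fell by 0.51 ± 0.10 with LPS and was 0.94 ± 0.10 higher with genipin than with LPS alone (adjusted p = 0.00436 and 0.000227). The LPS and genipin differences share the 3 LPS arrays, so a low or high LPS array moves both.

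Against mock, 2 of the 39 heart channel genes were higher and 5 lower in LPS+genipin hearts, with 7.54% and 12.3% of all heart genes. The lower ones were Kcnk2, Kcnj8 and Cacnb2, given above, Kcnn3 (-0.55 ± 0.11, adjusted p = 0.0105) and Cacng7, a relative of the AMPA receptor partners. Cacng7 differed by -1.14 ± 0.28 (adjusted p = 0.0234), and the call was lost without LPS+genipin replicate 1 or 2 or mock replicate 2 or 3 (adjusted p between 0.0546 and 0.0817). The higher ones, Kcna5 (0.43 ± 0.11, adjusted p = 0.0272) and Kcnn1 (0.58 ± 0.17, adjusted p = 0.0498), were lost without any 1 of 5 arrays, all but mock replicate 3, and without any 1 of the 6 arrays. The count of 7 dropped to 4 without LPS+genipin replicate 1 or 2 or mock replicate 2.

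Genes that work with these channels in the heart were read from 6 lists, to be set against the 29.1% of all heart genes that fell and the 18.2% that rose with LPS. Of 12 measured transcription factors of channel genes, 7 fell and 1 rose with LPS, led by Irx4 (-1.69 ± 0.09), Nkx2-5 (-1.26 ± 0.10) and Gata4 (-1.02 ± 0.10). With genipin 9 were higher and 2 lower than with LPS alone, where 22.1% of all heart genes were higher and 19.9% lower. Of 12 pumps and exchangers 7 fell and 2 rose, with the sodium pump subunit Atp1b2 at -0.98 ± 0.07. Of 12 sarcoplasmic reticulum genes 4 fell and 1 rose, a share of falls near that of all heart genes, with triadin (Trdn) at -0.73 ± 0.15. Of 22 channel scaffolds and accessory genes 7 fell and 3 rose, and these were led by the calcium channel inhibitors Rem1 (-1.45 ± 0.08) and Gem (1.26 ± 0.16). Of 15 chloride and transient receptor potential channels 7 fell and 2 rose, with Clcn4 at -1.08 ± 0.15. None of 5 ligand-gated receptor genes passed limma's test.

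Second probes of 9 heart channel genes gave the same sign as the chosen probe for 4 with LPS, and 0 were called in opposite directions. Those of Kcnd2 and Kcne1 were lower and called (-0.39 ± 0.13 and -0.25 ± 0.07, adjusted p = 0.0358 and 0.0174). That of Kcnq1 was not called (-0.14 ± 0.10, adjusted p = 0.258). That of Scn7a gave exactly 0.00 ± 0.06, as arrays at the floor do, so a fall could not show. It is counted among those without the same sign. The second probe of Kcnd1, a Kv4 pore, rose by 0.95 ± 0.29 (adjusted p = 0.0277) where the chosen probe gave -0.02 ± 0.09.

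In brain, LPS changed channel genes in both directions. Kcng4, a silent Kv subunit, and the T-type calcium channel Cacna1g rose, as did the Kv4 partners Kcnip1 and Kcnip4, while Kcnip2, another Kv4 partner, fell. The pacemaker channel Hcn2 and the potassium channels Kcnh5, Kcnv1, Kcnk6 and Kcnj14 fell, the last 4 by 0.67 to 0.80 on the log2 scale. Of 70 channel genes, 13 rose (18.6%) and 17 fell (24.3%), where 16.4% of all 10139 brain genes rose and 17.5% fell. Medians were 0.01 for channel genes and -0.00 for all genes. Leaving out 1 array at a time gave 21 to 34 called genes.

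**Figure D2:**
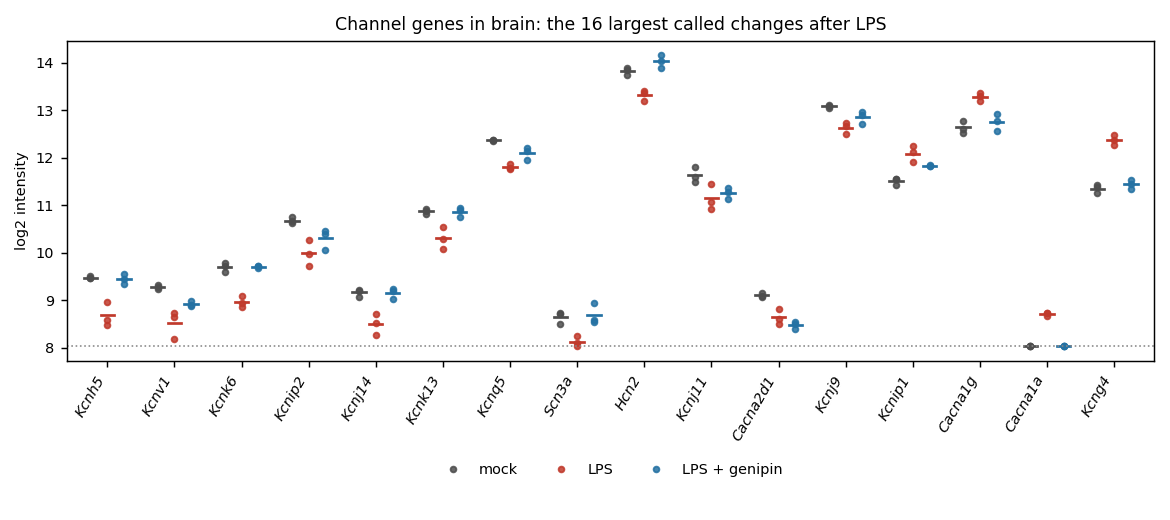
Levels in the 9 brain arrays of the 16 channel genes with the largest called LPS changes, as log2 intensity: points are arrays, short bars are means of 3 and the dotted line is the floor at 8.04. Kcng4, Cacna1g and Cacna1a lay highest in the LPS arrays, and Kcnh5, Kcnk6 and Kcnk13 lay lowest there, with LPS+genipin arrays near mock for these 6 genes.

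Kcng4 does not conduct alone but slows Kv2 channels when joined to them. It was at 11.43, 11.38 and 11.25 in mock, 12.28, 12.38 and 12.47 in LPS and 11.35, 11.44 and 11.54 in LPS+genipin brains. The LPS arrays stood apart from the other 6, by 1.03 ± 0.08 against mock (adjusted p = 5.25e-05) and with a genipin difference of -0.93 ± 0.08 (adjusted p = 0.000125). Kcna2, a Kv1 pore of axons, rose by 0.41 ± 0.09 (adjusted p = 0.0124), and Kcnd2, the main Kv4 pore of neurons, by 0.38 ± 0.06 (adjusted p = 0.00167). Kcnd2 was at 14.21, 14.16 and 14.15 in mock, 14.58, 14.52 and 14.58 in LPS and 13.95, 13.97 and 14.13 in LPS+genipin brains, a genipin difference of -0.54 ± 0.06 (adjusted p = 0.000397).

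The receptors that share the list of ligand-gated channels changed in both directions in the same arrays. Of those that rose, 3 are subunits known from cerebellar granule cells. Gabra6 rose by 0.81 ± 0.06, Gabrd by 1.08 ± 0.09 and Grin2c by 0.73 ± 0.14 with LPS (adjusted p = 6.11e-05, 9.05e-05 and 0.00638). With genipin they were lower than with LPS alone, at -1.71 ± 0.06, -1.27 ± 0.09 and -1.48 ± 0.14. No marker list for brain regions was used, and the part of regional sampling in the Kcng4, Kcnd2 and Cacna1g results was not tested. In brain 16.4% of all genes rose and 17.5% fell with LPS. Of the 25 measured ligand-gated receptors, 5 rose and 8 fell with LPS. With genipin 8 were higher and 5 lower, where 16.3% of all brain genes were higher and 13.8% lower than with LPS alone.

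Of 17 Kv alpha subunits in brain, 6 fell and 4 rose with LPS, where 17.5% of all brain genes fell and 16.4% rose. Kcnh5, an ether-a-go-go channel, was at 9.47, 9.47 and 9.51 in mock, 8.59, 8.97 and 8.49 in LPS and 9.55, 9.46 and 9.34 in LPS+genipin brains. It fell by 0.80 ± 0.12 (adjusted p = 0.00177) and was 0.77 ± 0.12 higher with genipin than with LPS alone (adjusted p = 0.0025). Kcnv1, another silent subunit, fell by 0.76 ± 0.13 (adjusted p = 0.00332), and its genipin difference of 0.40 ± 0.13 did not pass the test (adjusted p = 0.0506). Kcnq5, a pore of the M current that damps repeated firing, fell by 0.57 ± 0.07 (adjusted p = 0.000541), from 12.38, 12.36 and 12.37 to 11.86, 11.76 and 11.79, and was at 11.97, 12.14 and 12.20 with genipin. Kcnq3, the partner M current pore, lay near the floor and fell by 0.35 ± 0.09 (adjusted p = 0.0208), a call lost without LPS replicate 2 or 3 or mock replicate 1 or 2 (adjusted p between 0.0528 and 0.0704).

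Kcnh7 had the widest spread among these genes. It was at 13.77, 13.72 and 13.68 in mock and 13.68, 13.62 and 13.77 in LPS+genipin brains, and at 13.37, 13.41 and 8.04 in LPS brains, where replicate 3 alone was at the floor. Its LPS difference of -2.12 ± 1.27 did not pass the test (adjusted p = 0.234). Kcna5 and Kcna3, Kv1 channels known from smooth muscle and immune cells, were at or near the floor. Kcna5 was at the floor in all mock brains, 8.35, 8.20 and 8.64 in LPS and 9.12, 9.06 and 9.10 in LPS+genipin brains. It was at least 2.08-fold higher than mock with genipin (adjusted p = 0.000342) and at least 1.28-fold higher with LPS (adjusted p = 0.0263). That LPS call was lost without any 1 mock array (adjusted p between 0.0707 and 0.0754), and the difference of 0.36 was 0.24 without LPS replicate 3. Kcna3 was at the floor in all LPS brains and at 8.35, 8.45 and 8.35 with genipin, at least 1.27-fold higher (adjusted p = 0.00166).

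Of 9 auxiliary potassium channel subunits, 5 rose and 1 fell after LPS, where 16.4% of all brain genes rose and 17.5% fell. Kcnip1, a Kv4 partner, was at 11.44, 11.54 and 11.55 in mock and 11.91, 12.12 and 12.24 in LPS brains, a rise of 0.58 ± 0.08 (adjusted p = 0.00139). Kcnip4, another Kv4 partner, rose by 0.32 ± 0.07 (adjusted p = 0.00934) and Kcnab1, a Kv1 beta subunit that speeds inactivation, by 0.42 ± 0.07 (adjusted p = 0.00372). Kcne4 rose by 0.42 ± 0.07 with LPS (adjusted p = 0.00375) and was higher again with genipin, by 0.36 ± 0.07 (adjusted p = 0.00914), at 8.25, 8.24 and 8.29, then 8.64, 8.83 and 8.57, then 9.13, 9.01 and 8.97. Kcnip2, the subunit that fell in heart, fell by 0.69 ± 0.15 in brain too (adjusted p = 0.00904). Kcnip3, which also acts as a transcriptional repressor, did not pass the test with LPS (0.08 ± 0.06) and was 0.39 ± 0.06 lower with genipin than with LPS alone (adjusted p = 0.00182).

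Inward rectifiers fell where they passed the test in LPS brains, 4 of 7, where 17.5% of all brain genes fell. Kcnj14 was at 9.07, 9.22 and 9.20 in mock, 8.53, 8.71 and 8.27 in LPS and 9.24, 9.19 and 9.03 in LPS+genipin brains, with differences of -0.67 ± 0.11 and 0.65 ± 0.11 (adjusted p = 0.00316 and 0.00408). A second Kcnj14 probe gave 0.05 ± 0.05 with LPS. Between LPS+genipin and mock it gave exactly 0.00, as arrays at the floor do, so a fall could not show. The G protein-gated pores Kcnj9 and Kcnj3, which carry inhibitory currents in neurons, fell by 0.45 ± 0.08 and 0.25 ± 0.07 (adjusted p = 0.00475 and 0.03), and both Kcnj3 probes were lower (-0.41 ± 0.06 for the second). Kcnj11 fell by 0.48 ± 0.15 (adjusted p = 0.0362). Kcnj12 was unlike these: it was at 11.43, 11.62 and 11.57 in mock, 11.57, 11.64 and 11.69 in LPS and 10.85, 11.23 and 10.85 in LPS+genipin brains, a genipin difference of -0.66 ± 0.11 (adjusted p = 0.00316).

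Among K2P channels, Kcnk6 was at 9.60, 9.80 and 9.72 in mock, 8.94, 9.10 and 8.85 in LPS and 9.73, 9.72 and 9.68 in LPS+genipin brains. It fell by 0.74 ± 0.07 (adjusted p = 0.000274) and was 0.75 ± 0.07 higher with genipin than with LPS alone (adjusted p = 0.000337). Kcnk13, known in brain as the resting potassium channel of microglia, was at 10.82, 10.93 and 10.89 in mock, 10.29, 10.55 and 10.08 in LPS and 10.93, 10.91 and 10.76 in LPS+genipin brains. Its differences were -0.57 ± 0.11 and 0.56 ± 0.11 (adjusted p = 0.00617 and 0.00774), and a second probe gave 0.07 ± 0.06 with LPS. Between LPS+genipin and mock the second probe gave exactly 0.00, as arrays at the floor do, so a fall could not show. Of 8 measured microglia markers 5 fell and 2 rose with LPS, where 17.5% of all brain genes fell and 16.4% rose. The median level of these markers was 11.6 to 11.7 in mock, 10.8 to 11.0 in LPS and 11.7 to 11.8 in LPS+genipin brains. Their part in the Kcnk13 result was not tested. Kcnk12 did not pass the test with LPS (0.14 ± 0.05) and was 0.51 ± 0.05 lower with genipin than with LPS alone (adjusted p = 0.000389).

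Calcium channel pores rose in LPS brains where they passed the test, 2 of 5, where 16.4% of all brain genes rose. Cacna1g (Cav3.1), which gives thalamic and cerebellar neurons their burst firing, was at 12.78, 12.52 and 12.62 in mock, 13.31, 13.20 and 13.36 in LPS and 12.56, 12.78 and 12.92 in LPS+genipin brains. It rose by 0.65 ± 0.10 (adjusted p = 0.00251), with a genipin difference of -0.53 ± 0.10 (adjusted p = 0.00686). The P/Q-type pore Cacna1a was at the floor in all mock and LPS+genipin brains and at 8.67, 8.72 and 8.74 in LPS brains, so that it was at least 1.60-fold higher with LPS than in either group (adjusted p = 1.18e-05 and 2.25e-05). The groups at the floor have no spread of their own, so these p-values do not measure the full spread between arrays. With the floor at the 20th percentile Cacna1a was at the floor in every array. Cacna2d1, the auxiliary subunit that binds gabapentin, fell by 0.47 ± 0.08 (adjusted p = 0.00372) and was at 8.55, 8.40 and 8.50 with genipin, still below mock at -0.63 ± 0.08 (adjusted p = 0.00204). Cacnb4 rose by 0.21 ± 0.07 (adjusted p = 0.0465), and the call was lost without any 1 of 5 arrays, all but LPS replicate 1 (adjusted p between 0.0696 and 0.141). No TARP or gamma subunit of 4 passed limma's test with LPS.

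Hcn2, the main pacemaker channel of thalamus and brainstem, was at 13.74, 13.89 and 13.85 in mock, 13.19, 13.36 and 13.41 in LPS and 13.90, 14.16 and 14.04 in LPS+genipin brains. It fell by 0.50 ± 0.09 (adjusted p = 0.00332) and was 0.71 ± 0.09 higher with genipin than with LPS alone (adjusted p = 0.000815). Of 5 sodium channel pores, 1 passed the test with LPS, where 17.5% of all brain genes fell and 16.4% rose. It was Scn3a, at -0.52 ± 0.12 (adjusted p = 0.012), from 8.71, 8.50 and 8.74 to 8.25, 8.10 and 8.04. Scn1a (-0.21 ± 0.12), Scn2a (0.36 ± 0.13) and Scn8a (0.26 ± 0.10) did not pass. Scn2a passed without LPS replicate 2 (0.46, adjusted p = 0.0325) and Scn8a without LPS replicate 1 (0.38, adjusted p = 0.00376). Scn4a, the sodium channel of skeletal muscle, lay between 8.04 and 8.09 in the 9 brain arrays, at or near the floor. These include the 3 mock brains that carried skeletal muscle transcripts (8.06, 8.04 and 8.04). The part of those transcripts in the brain channel results was not tested.

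With genipin, 17 of the 70 brain channel genes were higher than with LPS alone and 14 lower, where 16.3% of all brain genes were higher and 13.8% lower. Medians were 0.09 for channel genes and 0.01 for all genes. Sodium channels were among them: Scn3a was 0.56 ± 0.12 higher (adjusted p = 0.0101), Scn1a 0.37 ± 0.12 higher (adjusted p = 0.047) and Scn2a lower at -0.50 ± 0.13 (adjusted p = 0.0227). The Scn1a and Scn2a calls were lost without LPS+genipin replicate 1 or 2 or LPS replicate 1 or 3 (adjusted p between 0.109 and 0.142 for Scn1a, 0.0594 and 0.0744 for Scn2a). The mock arrays do not enter these differences.

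Against mock, 7 of the 70 brain channel genes were higher and 7 lower in LPS+genipin brains, with 8.87% and 5.57% of all brain genes. The largest were Kcna5, Kcne4 (0.78 ± 0.07, adjusted p = 0.000362), Cacna2d1 and Kcnj12 (-0.56 ± 0.11, adjusted p = 0.0107). The count of 14 dropped to 9 without mock replicate 1, 2 or 3.

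Of 13 brain channel genes with several probes, all probes had 1 sign for 9 with LPS. The others include Kcnj14 and Kcnk13, whose second probes could not show a fall. The second probe of Kcnc1, a Kv3 pore of fast-firing neurons, rose by 0.76 ± 0.08 (adjusted p = 0.00045) where the chosen probe gave 0.14 ± 0.13. The second probe of Kcnd1 rose by 0.50 ± 0.11 (adjusted p = 0.00986) and that of Scn3b fell by 0.35 ± 0.10 (adjusted p = 0.0331), neither of which was called with the chosen probe. The second probe of Kcnj9 gave -0.04 ± 0.08 (adjusted p = 0.719). Of the other brain lists, 4 of 28 scaffold and accessory genes rose and 3 fell with LPS, and 2 of 15 pumps rose and 1 fell. Among all brain genes 16.4% rose and 17.5% fell.

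The LPS change was then compared between brain and heart for the 32 channel genes measured in both, by the interaction term of a joint limma fit. It differed for 16 of 32, where 41.3% of all 8207 shared genes differed. In 9 of the 16 the brain difference was above the heart difference and in 7 below. Kcnk2 was the widest, at -0.19 ± 0.07 in brain and -1.89 ± 0.11 in heart, a difference of 1.70. Kcnj12 (0.10 in brain, -1.16 in heart), Cacna1g (0.65 and -0.39) and Kcnn2 (0.21 and -0.77) followed in the same direction. The opposite order held for Kcnk13 (-0.57 in brain, 0.58 in heart), Kcnj3 (-0.25 and 0.90) and Kcnc4 (-0.27 and 0.86). The second Kcnj3 probe did not show this order, at -0.41 in brain and -0.16 in heart, the latter not called. Kcnip2 fell in both and further in heart, with a difference of 0.90 between the tissues. Cacna1g rose in brain and fell in heart, 1.04 apart, and both changes were called.

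**Figure D3:**
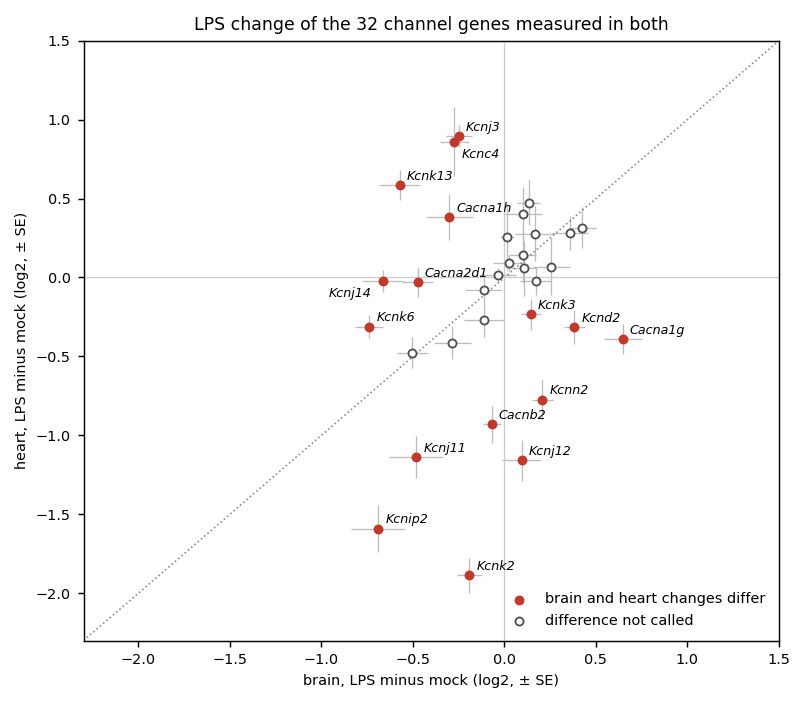
LPS minus mock differences (log2, ± SE) of the 32 channel genes measured in brain (horizontal axis) and heart (vertical axis); filled red points are the 16 genes whose difference between the tissues was called, and the dotted line marks equal change. Kcnk2, Kcnip2, Kcnj12 and Kcnj11 lie below the line, and Kcnj3, Kcnc4 and Kcnk13 above it.

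In kidney, the potassium secretory channel Kcnj1 fell with LPS and the acid-sensitive background channel Kcnk3 rose. Of 26 channel genes, 7 rose and 6 fell, where 25.2% of all 9472 kidney genes rose and 39.2% fell. Medians were 0.01 and -0.09. Kcnj1 (ROMK), through which the thick limb and collecting duct return potassium to the urine, was at 14.85, 14.76 and 14.86 in mock, 13.56, 13.74 and 13.65 in LPS and 14.30, 14.35 and 14.27 in LPS+genipin kidneys. The 3 groups did not overlap, with differences of -1.17 ± 0.05 (adjusted p = 8.1e-07) and 0.66 ± 0.05 (adjusted p = 3.95e-05), and -0.51 ± 0.05 between LPS+genipin and mock (adjusted p = 0.000182). Of 8 markers of thick limb, distal tubule and collecting duct, 2 rose and 3 fell, and their median level was 12.8 to 12.9 in mock and 12.6 to 12.7 in LPS kidneys.

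Other inward rectifiers of the tubule moved less. Kcnj15, a basolateral channel, rose by 0.39 ± 0.05 with LPS (adjusted p = 0.000336), while its second probe gave -0.12 ± 0.08 (adjusted p = 0.252). Kcnj16, its basolateral relative, fell by 0.21 ± 0.08 (adjusted p = 0.0394), a call lost without any 1 of 5 arrays, all but LPS replicate 2 (adjusted p between 0.0546 and 0.125). Kcnk1 (-0.03 ± 0.06), Kcnq1 (-0.02 ± 0.04) and Kcne1 (-0.00 ± 0.09), known from the proximal tubule and collecting duct, did not pass the test with LPS. With genipin, Kcne1 was lower than with LPS alone at -0.58 ± 0.09 (adjusted p = 0.00133).

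Kcnk3 was at 9.70, 8.92 and 9.62 in mock, 10.28, 10.79 and 10.98 in LPS and 10.52, 10.47 and 10.39 in LPS+genipin kidneys. It rose by 1.27 ± 0.24 (adjusted p = 0.00192), its second probe by 0.28 ± 0.07 (adjusted p = 0.0107), and it stayed 1.05 ± 0.24 above mock with genipin (adjusted p = 0.0081). Kcnk2 was at 8.66, 8.68 and 8.76 in mock, 8.34, 8.33 and 8.27 in LPS and 9.34, 9.43 and 9.51 in LPS+genipin kidneys. It fell by 0.39 ± 0.05 (adjusted p = 0.000357), was 1.12 ± 0.05 higher with genipin than with LPS alone (adjusted p = 2.46e-06), and exceeded mock by 0.73 ± 0.05 (adjusted p = 2.09e-05). Kcne4 fell by 0.81 ± 0.07 and was 0.98 ± 0.07 higher with genipin (adjusted p = 1.93e-05 and 1.46e-05). Cacnb4 was at 8.88, 8.80 and 8.82 in mock, at the floor in all LPS kidneys and at 8.89, 8.63 and 8.92 with genipin, at least 1.74-fold lower than mock and at least 1.71-fold lower than with genipin (adjusted p = 3.59e-05 and 7.31e-05).

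The small-conductance channels Kcnn1 and Kcnn3 rose by 0.78 ± 0.16 and 0.80 ± 0.15 with LPS (adjusted p = 0.00315 and 0.00224). Scn4a rose by 0.66 ± 0.12 (adjusted p = 0.00143) and Cacng6, a skeletal muscle gamma subunit relative, by 0.76 ± 0.11 (adjusted p = 0.000427). Each was lower with genipin than with LPS alone, at -0.65 ± 0.16, -0.65 ± 0.15, -0.98 ± 0.12 and -0.77 ± 0.11 (adjusted p = 0.00977, 0.00805, 0.00025 and 0.000589). Cacng6 was at 8.21, 8.04 and 8.45 in mock kidneys, near or at the floor. Cacna2d3 rose by 0.44 ± 0.05 (adjusted p = 7.99e-05), with a genipin difference of -0.45 ± 0.05 (adjusted p = 0.000111).

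With genipin, 8 of the 26 kidney channel genes were higher than with LPS alone and 8 lower, where 32.1% and 22.6% of all kidney genes were. Besides Kcnk2, Kcne4, Cacnb4 and Kcnj1, the higher ones included Scn7a (0.93 ± 0.19, adjusted p = 0.00408) and Kcnn2 (0.83 ± 0.11, adjusted p = 0.000542). Fibroblast and skeletal muscle markers were also higher with genipin, 6 of 6 and 4 of 4, and their part in these results was not tested. Against mock, 6 channel genes were higher and 4 lower in LPS+genipin kidneys, with 20.2% and 24.3% of all kidney genes.

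In liver, the largest falls with LPS were those of Kcnk5 and Kcnn2, and the largest called rise was that of Kcnj10. Of 19 channel genes, 7 rose and 3 fell with LPS, where 29.3% of all 8472 liver genes rose and 37.1% fell. Medians were 0.29 for channel genes and -0.03 for all genes. Kcnk5 (TASK-2), an alkali-activated background channel, was at 10.09, 10.20 and 10.13 in mock, at the floor in all LPS and at 8.51, 8.58 and 8.74 in LPS+genipin livers. It was at least 4.30-fold lower with LPS (adjusted p = 6.78e-08) and at least 1.49-fold higher with genipin than with LPS alone (adjusted p = 0.000218). It remained below mock at -1.53 ± 0.06 (adjusted p = 6.84e-07). Kcnn2 was at 11.38, 11.38 and 11.45 in mock, 9.99, 9.96 and 9.78 in LPS and 10.30, 10.53 and 10.64 in LPS+genipin livers, with differences of -1.49 ± 0.09 and 0.58 ± 0.09 (adjusted p = 3.41e-06 and 0.00139). Its groups did not overlap. Kcnk6 fell by 0.36 ± 0.05 (adjusted p = 0.000239).

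Kcnj10 (Kir4.1), the glial inward rectifier, rose by 0.96 ± 0.22 (adjusted p = 0.00547), from 9.87, 10.13 and 10.05 to 10.51, 10.96 and 11.46. Kcnk18, a background channel of sensory neurons, rose by 0.71 ± 0.10 (adjusted p = 0.000382), from 8.84, 9.08 and 9.03 to 9.62, 9.71 and 9.74. Kcnj4 rose by 0.41 ± 0.08 (adjusted p = 0.0019), Cacna2d3 by 0.58 ± 0.14 (adjusted p = 0.00695), Cacng6 by 0.60 ± 0.15 (adjusted p = 0.00922) and Kcnmb4 by 0.45 ± 0.10 (adjusted p = 0.0042). Kcnk3 rose by 0.65 ± 0.23 (adjusted p = 0.0369), which was 0.43 without LPS replicate 3 and was lost without any 1 of 5 arrays, all but LPS replicate 1 (adjusted p between 0.0575 and 0.107). Neutrophil markers were higher in the same livers, with a median of 2 markers of 10.8 to 10.9 in mock, 15.3 to 15.4 in LPS and 14.8 to 14.9 in LPS+genipin livers. The median of 2 fat cell markers was 8.65 to 8.75 in mock, 9.67 to 10.1 in LPS and 9.64 to 10.1 in LPS+genipin livers. Of 2 neuronal markers 1 rose and 1 fell with LPS, and of 4 skeletal muscle markers 1 rose and 1 fell. Their part in these results was not tested.

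**Figure D4:**
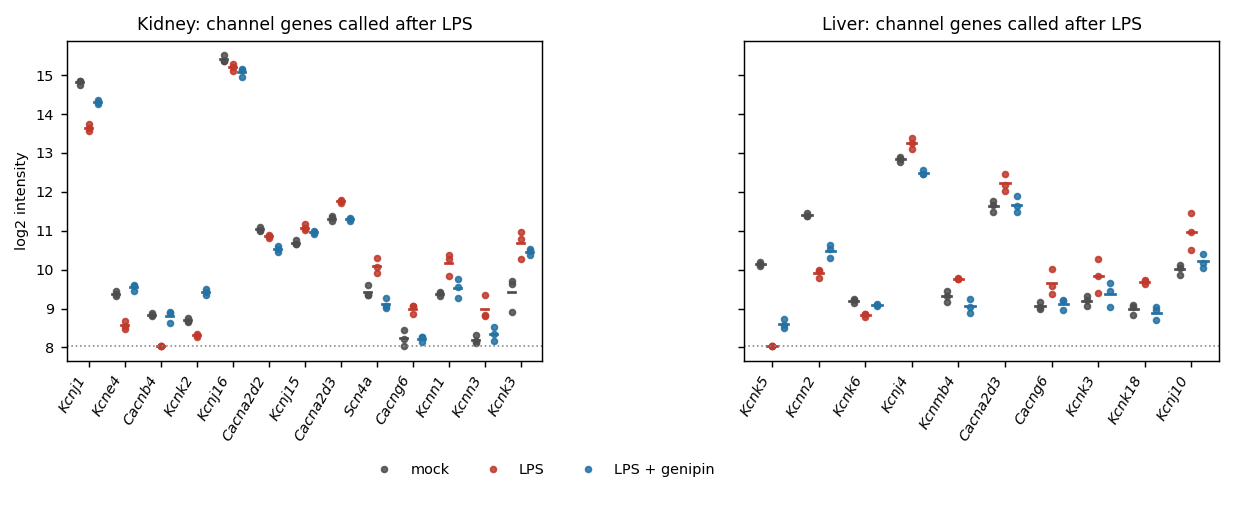
Levels of the channel genes called with LPS in kidney (13 genes, left) and liver (10 genes, right), as log2 intensity: points are arrays, short bars are means of 3 and the dotted line is the floor at 8.04. Kcnj1 in kidney and Kcnn2 in liver lie lowest in the LPS arrays with LPS+genipin arrays between LPS and mock, and the LPS arrays of Cacnb4 in kidney and Kcnk5 in liver are all at the floor.

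With genipin, 3 of the 19 liver channel genes were higher than with LPS alone and 10 lower (15.8% and 52.6%), where 29.5% of all liver genes were higher and 24.5% lower. The median difference was -0.46 for channel genes and 0.03 for all genes. Cacng7 was at 10.41, 10.66 and 10.95 in LPS and 9.76, 8.86 and 9.11 in LPS+genipin livers, a difference of -1.43 ± 0.25 (adjusted p = 0.00214). Kcnn3 (-0.89 ± 0.21), Kcnk18 (-0.80 ± 0.10), Kcnj4 (-0.75 ± 0.08) and Kcnmb4 (-0.71 ± 0.10) were lower as well. Kcnj10 was lower at -0.76 ± 0.22 (adjusted p = 0.0204), a call lost without LPS+genipin replicate 2 or 3 (adjusted p = 0.058 and 0.0686). The higher ones were Kcnk5, Kcnn2 and Kcnk6 (0.26 ± 0.05, adjusted p = 0.00245). Kcnk3 did not pass with its chosen probe (-0.46 ± 0.23, adjusted p = 0.129), and its second probe was higher by 0.86 ± 0.09 (adjusted p = 0.000147).

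Against mock, 0 channel genes were higher and 7 lower in LPS+genipin livers by limma's test, with 28.5% and 32.5% of all liver genes, and at an unadjusted p under 0.05 the counts were also 0 and 7. Probes outside the rule gave other calls: the second Kcnk3 probe was higher by 1.18 ± 0.09 and a Kcnma1 probe by 0.82 ± 0.21 (adjusted p = 1.76e-05 and 0.00942), and a Kcnq1 probe was lower (-0.44 ± 0.06, adjusted p = 0.000468). The 7 included Kcnk5, Kcnn2 (-0.91 ± 0.09), Cacng7 (-0.94 ± 0.25), Kcnn3 (-0.80 ± 0.21) and Kcnj4 (-0.34 ± 0.08). Cacng8 was at the floor in all 9 liver arrays.

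The 12 channel genes measured by the chosen probe in all 4 tissues were Cacna1b, Cacna2d3, Cacng6, Kcnd1, Kcnj4, Kcnk1, Kcnk3, Kcnk6, Kcnn1, Kcnn2, Kcnn3 and Scn4a. Their LPS change differed among tissues for 7 of 12, where 77.0% of all 6698 shared genes differed, and their genipin change for 9 of 12, where 74.4% did. Leaving out 1 replicate number at a time gave 4 to 7 genes for LPS and 3 to 7 for genipin, lowest without replicate 2 in both. Kcnn2 had the smallest p for LPS (adjusted p = 2.12e-10), with -1.49 in liver, -0.77 in heart, -0.19 in kidney and 0.21 in brain. Kcnk6 followed (adjusted p = 3.85e-07), at -0.74 in brain, -0.36 in liver, -0.31 in heart and 0.13 in kidney. For Kcnn2, mock kidneys (8.42, 8.29 and 8.29) and LPS hearts (8.14, 8.27 and 8.04) lay at or near the floor. Larger falls could not show there. Kcnk3 ran from -0.23 in heart and 0.14 in brain to 0.65 in liver and 1.27 in kidney (adjusted p = 4.94e-05). Kcnd1, a Kv4 pore, did not pass the test in any tissue with LPS with its chosen probe and ranged from -0.02 to 0.17. Scn4a, called for genipin, lay between 8.04 and 8.09 in the brain arrays, where a fall could not show.

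**Figure D5:**
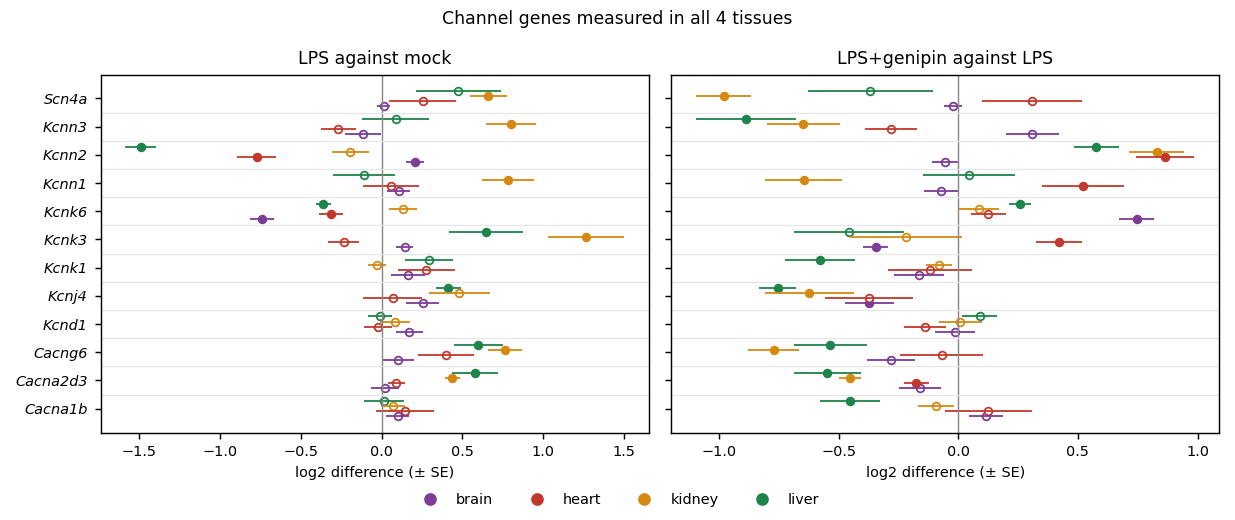
Differences (log2, ± SE) of the 12 channel genes measured in all 4 tissues, for LPS against mock (left) and LPS+genipin against LPS (right); colour gives the tissue and filled points are called at an adjusted p under 0.05. Kcnn2 runs from -1.49 in liver to 0.21 in brain and Kcnk3 from -0.23 in heart to 1.27 in kidney with LPS, and the comparisons share the LPS arrays of each tissue.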

How the data were processed

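The authors deposited array intensities, one linear normalised value per probe and array (36 arrays, 18183 probes); the submitters' processing notes name limma without its role, and the scale and saturation point are read from the values. Probes were assigned genes from the platform annotation (14817 probes with 1 symbol, 3366 with none, left out), with outdated symbols updated through RefSeq (1 member). Values missing from a tissue were missing on all its arrays. Intensities were floored at 263, log2-transformed and fitted per tissue with limma 3.58.1 in R 4.3.3 (lmFit, eBayes, 3 groups of 3). Where all arrays of a group lay at the floor or at saturation (60000), a fold is a bound. Interactions were joint fits of tissues normalised separately. Members and lists were chosen with earlier results of these data known. Genes named are mostly the largest called rises and falls (8 each for LPS, 5 each otherwise), textbook channels of the tissue, genes with bounds and leading list genes. Others were named outside this rule, among them Kcnip4, Kcnj3, Kcnj11 and Kcnh7 in brain and Kcnk6, Scn7a and Kcnj10 in heart. Whether their calls are lost without 1 array was not examined. On simulated data the LPS fits recovered 85.1% to 100% of 1 log2 changes and 56.7% to 70.1% of 0.5 log2 changes. The share of their calls that was false ran from 4.17% in liver to 9.19% in brain. The interaction fit of brain and heart recovered 85.1% of 1 log2 changes and 38.8% of 0.5 log2 changes. Each simulated fit changed 67, 67 and 66 genes by 0.5, 1 and 2 log2, with independent arrays and no floor. Far more genes were called in the real tissues, so none of these shares is an error rate or recovery rate of the real calls. Within a tissue, deviations of same-numbered arrays of different groups correlated at -0.52 to 0.29. In brain the median was 0.14, against -0.0003 for differently numbered arrays. Whether same-numbered arrays of different tissues share an animal was not tested, and the main interaction fits treat all arrays as independent. The number of arrays limits precision. Alternatives tried are given in the closing section.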

Additional observations from a re-analysis of the deposited data

Results flagged for a closer look

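The LPS change of 16 channel genes differed between brain and heart by the interaction test at an adjusted p under 0.05, and the values here are the brain difference minus the heart difference on the log2 scale. The brain difference was above the heart difference for Kcnk2 by 1.70, Kcnj12 by 1.25, Cacna1g by 1.04, Kcnn2 by 0.98, Kcnip2 by 0.90, Cacnb2 by 0.86, Kcnd2 by 0.70, Kcnj11 by 0.65 and Kcnk3 by 0.38. It was below for Kcnk13 (-1.16), Kcnj3 (-1.15), Kcnc4 (-1.13), Cacna1h (-0.68), Kcnj14 (-0.64), Cacna2d1 (-0.44) and Kcnk6 (-0.43). Kcnj14 lay between 8.04 and 8.23 in the heart arrays, at or near the floor, where a fall like that in brain could not show. Mock hearts had Kcnc4 at 8.18, 8.62 and 8.04, also at or near the floor. The second Kcnj3 probe gave -0.41 in brain and -0.16 in heart, the latter not called. Each tissue was normalised separately.

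Among the 12 genes measured in all 4 tissues, the LPS change differed among tissues by limma's F test for 7. Adjusted p was 2.12e-10 for Kcnn2, 3.85e-07 for Kcnk6, 4.94e-05 for Kcnk3, 0.000524 for Kcnn3, 0.000893 for Cacna2d3, 0.00558 for Kcnn1 and 0.0273 for Cacng6. Mock kidneys had Kcnn2 at 8.42, 8.29 and 8.29, near the floor, where a larger fall could not show. The genipin change against LPS differed for 9. Adjusted p was 8.67e-06 for Kcnk6, 9.29e-06 for Kcnn2, 0.000185 for Kcnn3, 0.000754 for Scn4a, 0.000800 for Kcnn1, 0.0143 for Kcnk3, 0.0168 for Cacng6, 0.0171 for Cacna1b and 0.0182 for Cacna2d3. Brain arrays had Scn4a between 8.04 and 8.09, at or near the floor, where a fall could not show.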

How the results depend on the processing

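Of 2952 values of single genes under an alternative, 2814 kept their side of the threshold, 97 lost their call and 41 gained one, apart from leaving out arrays. A change of direction was counted only where a value was called. With only genes above the 25th percentile of the tissue, fewer genes were tested, and the counts of called channel genes were 18 in brain with LPS, 18 with genipin against LPS and 8 against mock. They were 8 in kidney with LPS and 7 with genipin against LPS, and 8 and 4 in liver with genipin against LPS and against mock. Interactions were then 3 for LPS among tissues, 9 between brain and heart and 3 for genipin among tissues. Array weights gave 29 in brain and 11 in heart for genipin against mock, and a floor at the 20th percentile gave 8 in kidney with LPS. The causes were not tested. With that floor 42 of 234 values of single genes lost their call and 1 gained one. Among the values each kept, no other alternative ended more than 12 calls, so calls of genes with low levels depend on where the floor is put. The 25th percentile filter kept only 144 of the 234 values. Genes that it removed are not counted as lost in these tallies. Leaving out 1 array gave 9 to 12 in brain and 4 to 5 in heart for genipin against mock, and leaving out 1 replicate number gave 4 to 7 for LPS and 3 to 7 for genipin among tissues, lowest without replicate 2. Kcnq1 in kidney reversed with the probe highest within the tissue, an alternative chosen after seeing the data: genipin against LPS was -0.0208 (adjusted p = 0.757), against 0.13 (adjusted p = 0.0246) with the chosen probe. That call was also lost without LPS+genipin replicate 1 or 2 or LPS replicate 2 or 3 (adjusted p between 0.0601 and 0.0737). Fits with a replicate block gave 31, 29 and 15 called genes in brain for LPS, genipin against LPS and genipin against mock, 19, 15 and 5 in heart, 13, 15 and 10 in kidney and 10, 13 and 7 in liver. Levels at the floor carry only bounds.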
